A study of Bos taurus with 30 samples.

Results

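Both mature products of the miR-21 hairpin, bta-miR-21-5p and bta-miR-21-3p, were measured by small RNA sequencing of the anterior pituitary in 30 bull calves of the Holstein-Friesian breed. They were chosen by name and are 2 of the 1030 mature miRNAs in the table, and both passed the filter on low values that left 419 miRNAs for testing. The anterior pituitary is the hormone-secreting lobe of the gland. The calves had been fed 1 of 2 diets from 2 weeks of age, and the gland was collected at 12 weeks. The 15 HI calves, on a high plane of nutrition, were given 1.5 kg of milk replacer in 10 litres per day with free access to concentrate. The 15 MOD calves, on a moderate plane, were given 0.5 kg of milk replacer in 4 litres and at most 0.5 kg of concentrate per day. Hay was offered daily to all calves. Each library came from 1 calf, so the spread between libraries includes the spread between animals. The comparison asked whether the diet changed the level of either arm, or the balance between them.

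A miRNA hairpin is cut by Dicer into a duplex of a 5p and a 3p strand. One strand, the guide, is loaded into an Argonaute protein and directs it to matching messenger RNAs, while the other, the passenger, is largely degraded. For miR-21 the 5p arm is the usual guide and the 3p arm, once written miR-21*, the usual passenger, although the 3p arm can also be loaded. miR-21-5p is expressed in most cell types and rises in growth, inflammation and fibrosis. Its known targets include PDCD4, a tumour suppressor, and SMAD7, an inhibitor of TGF-beta signalling. Its transcription is driven by STAT3 and AP-1, and SMAD proteins can speed the processing of its hairpin. In the RefSeq annotation of the ARS-UCD2.0 cattle assembly, the MIR21 gene, with a precursor of 72 bases, lay between VMP1, which encodes a protein of autophagosome formation, and TUBD1, which encodes delta-tubulin. It was outside the annotated span of VMP1. Both arms matched this 1 gene, so they share a transcript and differ only in what follows cleavage.

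The deposited values are read counts per library total scaled by TMM factors (counts per 1e+06 reads, CPM), and whole reads could be recovered from them. Reads on miRNAs numbered 6650492 to 11086524 per library, so that the limit set by a count of 0, taken as 3 reads and covering counting error only, was 0.266 to 0.419 CPM. The tissue label was checked against marker miRNAs: miR-375, abundant in pituitary endocrine cells, was at 146057 CPM on average, and the 4 listed neural miRNAs ranged from miR-219-5p at 0.561 and miR-124a at 0.755 CPM to miR-9-5p at 29.2 and miR-128 at 465 CPM. A group of 9 libraries at the top of the label numbers, 5 of them HI and 4 MOD, was treated as a set beside the other 21, because earlier results of these data had set it apart. The labels do not say what the number stands for.

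bta-miR-21-5p was an abundant miRNA in every calf. Its level in HI calves ran from 5495 CPM through a median of 6760 to 7691 CPM. In MOD calves the lowest level was 6018 CPM, the median 6553 and the highest 7583. The range of the HI calves thus held that of the MOD calves whole, with 2 HI calves above the highest MOD calf and 3 below the lowest. The means were 6759 ± 655 CPM (SD, n = 15) in HI and 6605 ± 446 CPM (SD, n = 15) in MOD calves. These levels rested on 45646 to 76863 reads per library. By level bta-miR-21-5p ranked between 26 and 33 in each library, and 28 by its mean over the 30 libraries.

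bta-miR-21-3p was detected in every calf at a far lower level. HI calves ran from 69.1 CPM through a median of 84.3 to 114.9 CPM, and MOD calves from 68.7 through 86.5 to 102.1 CPM. The diets overlapped almost completely, with 2 HI calves above the highest MOD calf and 1 MOD calf below the lowest HI calf. The means were 86.8 ± 12.6 CPM (SD, n = 15) in HI and 86.2 ± 9.82 CPM (SD, n = 15) in MOD calves, from 569 to 1020 reads per library. The 3p arm ranked between 154 and 182 in each library and 169 by its mean.

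**Figure D1:**
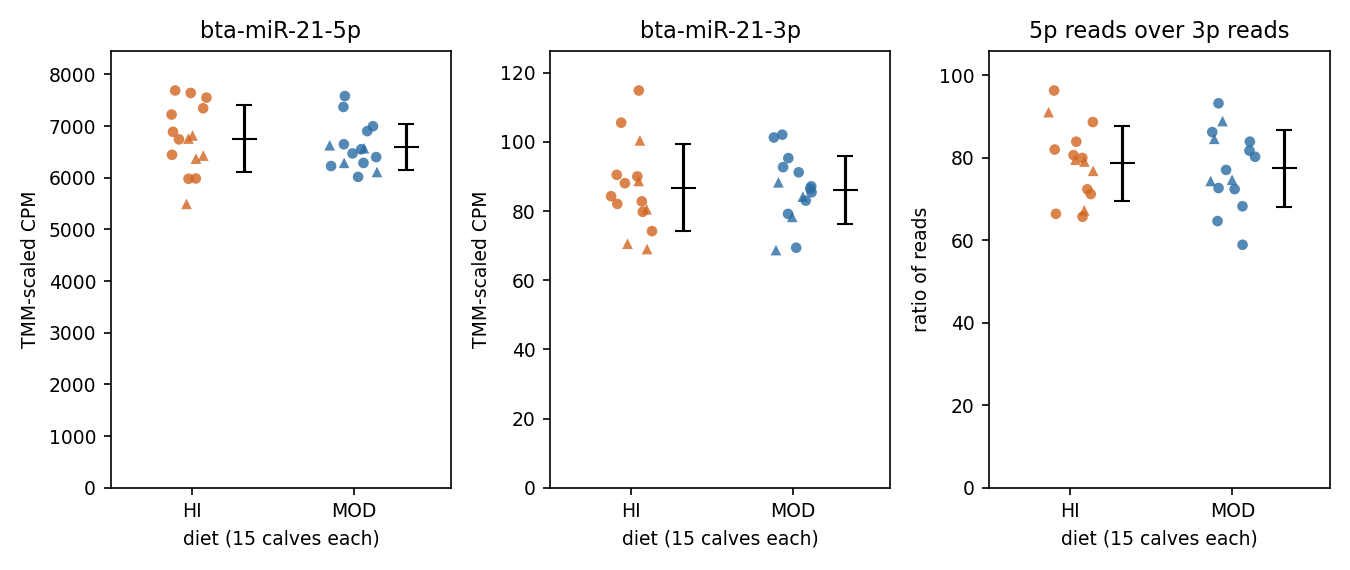
Levels of bta-miR-21-5p and bta-miR-21-3p (TMM-scaled CPM) and the ratio of their reads in each calf, by diet, on axes that start at 0. Each point is 1 calf (circles, the 21 libraries with lower label numbers; triangles, the 9 with the highest), and the black bars are the mean and SD of 15 calves. HI and MOD points overlap in all 3 panels, and the means of bta-miR-21-5p are 6759 and 6605 CPM.

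Among miRNAs of a like level, neither arm stood clear of its neighbours. Levels of different miRNAs are compared here as reads of molecules of nearly one length, without correction for how well each is captured in a library. Next above bta-miR-21-5p was miR-30d, at 6693 ± 824 CPM (SD, n = 30) against 6682 ± 556 CPM for the 5p arm, and miR-30d was the higher of the pair in 15 of 30 libraries. Next below was miR-192, a miRNA linked to TGF-beta responses in the kidney, at 6333 ± 630 CPM and higher than the 5p arm in 10 of 30 libraries. The 3p arm, at 86.5 ± 11.1 CPM, lay between miR-299 at 88.6 ± 20.0 CPM and miR-382 at 85.2 ± 14.5 CPM, both from the imprinted DLK1-DIO3 region. miR-299 exceeded it in 14 and miR-382 in 12 of 30 libraries. All of these neighbours differed from the arm they flank by less than the SD between calves.

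No difference between the diets was detected in either arm at FDR < 0.1. HI and MOD calves were compared with limma on log2(CPM + 1) over the 419 tested miRNAs, where the added 1 shrinks the fold changes of weakly expressed miRNAs. For bta-miR-21-5p the log2 fold change, HI against MOD, was 0.03 with an SE of 0.05 and an FDR of 0.906 in limma. Its 95% confidence interval, from -0.06 to 0.12 on the log2 scale, corresponds to 0.957-fold to 1.09-fold. For bta-miR-21-3p the log2 fold change was 0.0049 with an SE of 0.07 and an FDR of 0.984 in limma, and its interval was 0.910-fold to 1.11-fold. The fold change of 1.5 that the study used as a threshold lay outside both intervals.

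Neither member was therefore among the 15 miRNAs, 8 higher and 7 lower in HI calves, that passed FDR < 0.1 in limma, which is 3.58% of those tested. Nor was either among the 2 that also passed a fold change of 1.5, or 0.477% of those tested. Ordered by p, bta-miR-21-5p stood at place 241 of 419 and bta-miR-21-3p at place 396. The median log2 fold change of all tested miRNAs was 0.02, close to the values of both arms. On the recovered reads, edgeR's quasi-likelihood test gave log2 fold changes of 0.03 for the 5p arm and 0.01 for the 3p arm, with FDR of 0.892 and 0.967, and called 21 miRNAs. Scaling by total reads in place of TMM raised the 5p value to 0.09 with an FDR of 0.468 and the 3p value to 0.07 with an FDR of 0.691 in limma, and turned the split of calls to 16 higher and 2 lower. The TMM factors themselves were 1.02 ± 0.0724 (SD, n = 15) in HI and 0.979 ± 0.0313 (SD, n = 15) in MOD libraries.

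**Figure D2:**
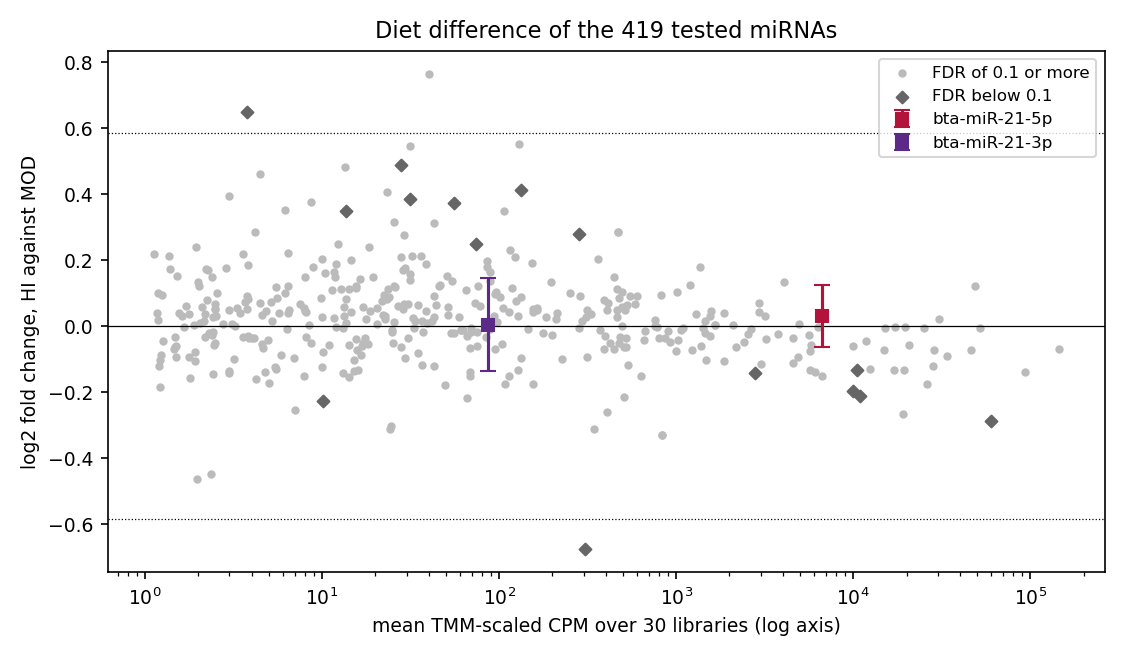
Log2 fold change of HI against MOD calves for each of the 419 tested miRNAs (vertical axis) against its mean level in TMM-scaled CPM (horizontal log axis). Diamonds mark the 15 miRNAs with an FDR below 0.1, dotted lines a fold change of 1.5, and squares with bars the arms of miR-21 with their 95% confidence intervals. Both squares lie near 0, at 0.03 for bta-miR-21-5p and 0.0049 for bta-miR-21-3p.

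The diet difference was also small within each set of libraries. Single values were compared with two-sided permutation tests, 9 in all over the arms, their ratio and the sets, and every adjusted p was 0.968. Over all 30 calves, 9 of 15 HI calves were above the MOD median for bta-miR-21-5p (permutation p = 0.502) and 7 of 15 for bta-miR-21-3p (permutation p = 0.944). In the 21 libraries the log2 difference was 0.06 for the 5p arm (exact permutation p = 0.304) and 0.0084 for the 3p arm (exact permutation p = 0.913). In the 9 libraries it was -0.0093 for the 5p arm (exact permutation p = 0.968) and 0.03 for the 3p arm (exact permutation p = 0.825). A limma test of whether the diet difference itself differed between the sets gave an FDR of 0.875 for the 5p arm and 0.971 for the 3p arm.

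Levels of both arms were lower on average in the 9 libraries, with overlapping ranges, and this is a description without a test. bta-miR-21-5p was at 6808 ± 572 CPM (SD, n = 21) in the larger set and 6387 ± 403 CPM (SD, n = 9) in the smaller one, where the highest calf reached 6820 CPM. bta-miR-21-3p was at 88.9 ± 10.7 CPM (SD, n = 21) and 81.0 ± 10.7 CPM (SD, n = 9). The last digits of the calf labels also fell into 4 runs of numbers, which held 7, 3, 4 and 16 calves. With diet in the model, limma's F-test over the 4 runs called 1 of 419 miRNAs, or 0.239%, and not an arm of miR-21 (FDR of 0.998 for the 5p arm and 0.985 for the 3p arm).

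The 5p arm varied little between calves. Its SD within a diet was 0.12 on the log2 scale, and 18 of the 419 tested miRNAs had a smaller one, against a median SD of 0.25. Read counting alone would give bta-miR-21-5p an SD of 0.00604. Of the 19 miRNAs whose mean level was within a factor of 2 of it, 4 had a smaller SD, and their median was 0.15. The 3p arm had an SD of 0.18, of which counting alone would give 0.05. Across all tested miRNAs 92 had a smaller SD than bta-miR-21-3p, and of the 65 within a factor of 2 of its level 16 did, with a median of 0.25. The raw spread of the 5p arm was wider in HI calves, with a coefficient of variation of 9.70% against 6.75% in MOD calves, a difference that was not tested.

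The balance between the arms varied more than the 5p arm did, with an SD of 0.17 for the log2 ratio within a diet against 0.12. In HI calves the ratio of 5p to 3p reads ran from 65.7 through a median of 79.6 to 96.3, and in MOD calves from 58.9 through 77.1 to 93.2. One HI calf was above the highest MOD calf and 2 MOD calves were below the lowest HI calf, so that the diets overlapped again. The mean ratio was 78.8 ± 9.09 (SD, n = 15) in HI and 77.5 ± 9.39 (SD, n = 15) in MOD calves. Expressed as a share, between 98.3% and 99.0% of the miR-21 reads in a library were from the 5p arm. A ratio within a library does not depend on how libraries are scaled.

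The log2 arm ratio differed by 0.02 between the diets, with an SE of 0.06, an interval from 0.929-fold to 1.11-fold and an FDR of 0.905 in limma over 31 pairs. These were the pairs, of 83 in the table, whose 5p and 3p arms both passed the filter. Limma called none of the 31 ratios (0%), with 1 pair, not miR-21, at an unadjusted p under 0.05. Within the 21 libraries the log2 difference of the miR-21 ratio was 0.05 (exact permutation p = 0.573) and within the 9 it was -0.04 (exact permutation p = 0.698). The 4 runs of label numbers did not separate the ratio either (FDR of 0.984 in limma's F-test, which called 0% of the pairs).

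Among the 31 pairs, miR-21 was one of the most one-sided towards 5p. Pairs with an arm too rare to pass the filter, which can be more one-sided, were not ranked. Its median ratio of 79.3 was the third highest, after miR-30b at 817 and let-7a at 227, both from families with a known 5p guide, and just before miR-6119 at 76.7. The 5p arm was the higher one in 20 pairs and the 3p arm in 11. At the other end were miR-27a, with 7.42e-05 5p reads per 3p read, miR-22 with 0.00141 and miR-331 with 0.0748, all miRNAs whose 3p arm is the usual guide. The log2 ratio of miR-21 had an SD of 0.17 within a diet, and 5 of the 31 pairs had a smaller one, in a range of 0.12 to 0.53 with a median of 0.28. Some other pairs hold an arm of few reads, such as miR-27a-5p at 2.41 CPM and miR-30b-3p at 2.29 CPM, where counting adds to the spread. Pairs of like level were not compared as a set. Of 2 pairs with a 3p arm near the level of bta-miR-21-3p, let-7a (73.4 CPM) had an SD of 0.12 and miR-424 (75.0 CPM) one of 0.34.

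**Figure D3:**
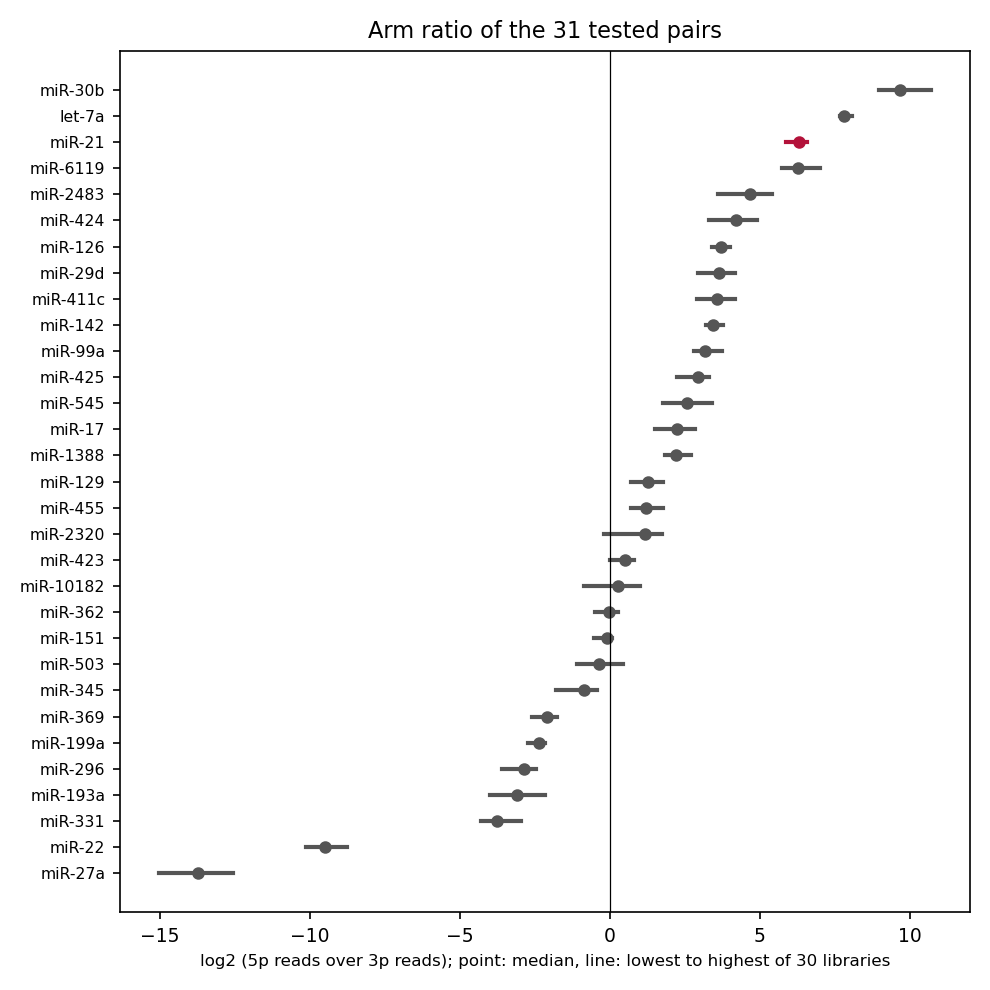
Log2 ratio of 5p to 3p reads for the 31 pairs of arms that were tested (horizontal axis), 1 pair per line, with miR-21 in red. Points are medians and lines run from the lowest to the highest of 30 libraries, and values above 0 mean more 5p than 3p reads. The miR-21 line is short and is the third from the top, with a median ratio of 79.3 before the log.

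Since both arms come from one hairpin, their levels were set against each other across calves, with 6 relations in the family. Over the 30 calves Pearson's r of log2(CPM + 1) was 0.430 (permutation p = 0.0177, adjusted p = 0.0433) and Spearman's rho was 0.314 (permutation p = 0.0924, adjusted p = 0.177). Without the 2 calves farthest from the median of the 5p arm, r was 0.412 (permutation p = 0.0297, adjusted p = 0.0446). With the deposited scaling the relation by ranks thus did not pass the correction where the linear one did. The arms share the scaling of their library, and the relation by ranks changed with it. Spearman's rho was 0.521 with total reads (permutation p = 0.00349), 0.534 with upper quartile scaling (permutation p = 0.00274) and 0.430 without the 5 most abundant miRNAs (permutation p = 0.0185), but 0.310 with RLE size factors (permutation p = 0.0967), all unadjusted. Pearson's r was 0.431 to 0.553 with these 4 scalings.

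The relation was then computed within each diet and each set of libraries. In HI calves r was 0.588 (permutation p = 0.0216, adjusted p = 0.0433) and rho 0.421 (adjusted p = 0.177), and in MOD calves r was 0.155 (permutation p = 0.585) and rho 0.0821 (permutation p = 0.773). In the 9 libraries r was 0.716 (exact permutation p = 0.0123, adjusted p = 0.0433) and rho 0.767 (exact permutation p = 0.0214, adjusted p = 0.128). In the 21 libraries r was 0.232 (permutation p = 0.312) and rho 0.131 (permutation p = 0.570), so that a relation was not detected in the larger set. Other scalings were not tried within the sets. Whether these correlations differ from each other was not tested. Across the 31 pairs the median rho between arms was 0.373, and 13 pairs had a lower rho than miR-21.

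**Figure D4:**
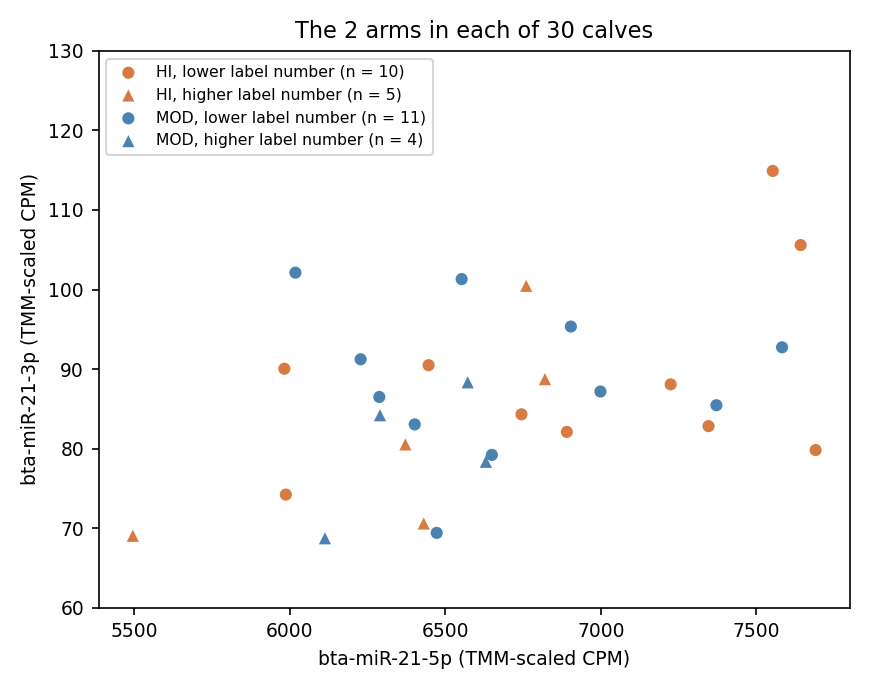
Level of bta-miR-21-3p against bta-miR-21-5p in each of 30 calves (both in TMM-scaled CPM, axes that do not start at 0), with HI calves in orange and MOD calves in blue. Circles are the 21 libraries with lower label numbers and triangles the 9 with the highest. Pearson's r is 0.430 over all calves, 0.232 among the circles and 0.716 among the triangles.

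The miRNAs whose levels followed bta-miR-21-5p most closely across the 30 calves included a pair of the 8 listed white blood cell markers. The summed level of that list had a Spearman's rho of 0.0020 with the arm. Its most abundant member, miR-146b, was at -0.05, and the members are described below. The likeness is Spearman's rho of log2(CPM + 1) with each of the other 418 tested miRNAs, given as a description, since all points share their library's depth and scaling. The highest rho, 0.642, was that of miR-142-3p, which is made in cells of blood origin, and it was 0.723 in the 21 and 0.633 in the 9 libraries. miR-378, a miRNA of energy metabolism encoded within PPARGC1B, followed at 0.511. miR-155, a miRNA of activated lymphocytes and macrophages, was at 0.507 over all calves, 0.536 in the 21 and 0.25 in the 9 libraries. miR-193b at 0.481 and the let-7 relative miR-98 at 0.479 completed the first 5. Over all 418 miRNAs the median rho was 0.02, and 3 were above 0.5. By diet, rho with the 5p arm was 0.682 in HI and 0.496 in MOD calves for miR-142-3p, 0.671 and 0.282 for miR-378, and 0.664 and 0.196 for miR-155. The difference between the diets in these values was not tested.

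miR-142-3p itself ran from 29.0 CPM through a median of 44.8 to 61.6 CPM in HI calves and from 33.4 through 42.8 to 59.5 CPM in MOD calves. The calf with the lowest miR-142-3p was also the one with the lowest bta-miR-21-5p, and the calf with the highest was likewise the same for both. Of the 5 miRNAs nearest to the 5p arm, miR-378 alone passed FDR < 0.1 between the diets in limma, with a log2 fold change of 0.28 and an FDR of 0.0874. Its level was 309 ± 57.6 CPM (SD, n = 15) in HI and 254 ± 40.9 CPM (SD, n = 15) in MOD calves.

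At the opposed end of the 5p arm was miR-375, the most abundant miRNA of the gland, with a rho of -0.568. It was -0.587 in the 21 libraries and -0.167 in the 9, -0.746 in HI and -0.286 in MOD calves, and -0.408 when libraries were scaled by total reads, a scaling tried after the data were seen. Next were miR-125b at -0.495 and miR-125a at -0.484, of which the first was -0.09 and the second -0.28 with total reads. Under that scaling miR-142-3p kept a rho of 0.656 with the 5p arm and miR-155 one of 0.526. As miR-375 takes up a large share of each library, its own level and those of the other miRNAs are not free of each other. In bulk tissue fewer cells of a type and less RNA per cell cannot be told apart.

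**Figure D5:**
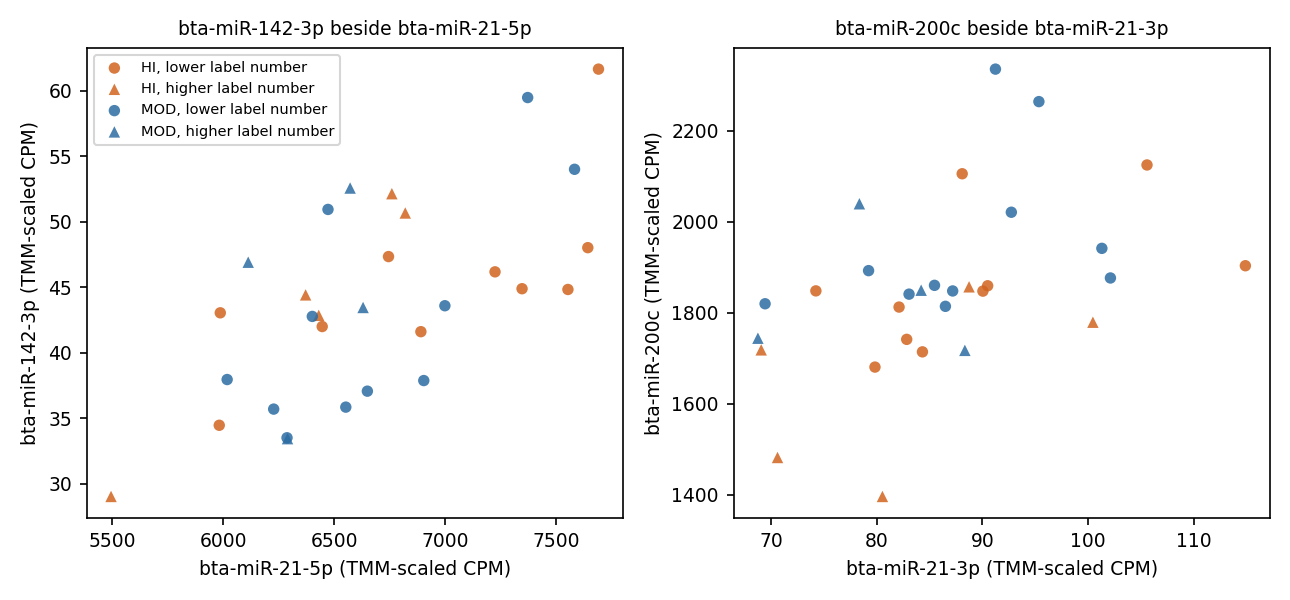
Level of miR-142-3p against bta-miR-21-5p (left) and of miR-200c against bta-miR-21-3p (right) in each of 30 calves, in TMM-scaled CPM on axes that do not start at 0. Colours give the diet and symbols the set of label numbers, as named in the legend. Spearman's rho is 0.642 on the left and 0.561 on the right.

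The 3p arm had other miRNAs nearest to it, and miR-142-3p was not among them (rho of 0.02 with bta-miR-21-3p). The first was miR-200c, an epithelial miRNA that restrains ZEB1 and ZEB2, at a rho of 0.561 over all calves. It was 0.678 in the 21 and 0.267 in the 9 libraries, and 0.689 in HI and 0.429 in MOD calves. miR-200c is also on the list of pituitary endocrine markers described below, whose summed level had a rho of -0.291 with the 3p arm. That sum is mostly miR-375, at -0.381. Of the list's other members, miR-200b was at 0.487, miR-141 at 0.429, miR-183 at 0.335 and miR-7 at 0.294. Below these were miR-182 at 0.111, miR-200a at 0.102, miR-96 at -0.0060 and miR-429 at -0.245. After miR-200c came miR-2336 at 0.556, miR-654 at 0.552, miR-376e at 0.547 and miR-299 at 0.541, of which the last 3 belong to the imprinted DLK1-DIO3 region. All 5 miRNAs were above 0.5, and their FDR between the diets in limma ran from 0.410 for miR-200c to 0.984 for miR-299. The most opposed were miR-2284h-5p at -0.555, miR-6529a at -0.533 and miR-128, a neural miRNA, at -0.488. In that order, their rho was -0.390, -0.316 and -0.258 with total reads. By set it was -0.331, -0.422 and -0.306 in the 21 libraries, and -0.733, -0.617 and -0.667 in the 9. In the order of likeness with the deposited scaling, the arms of miR-21 stood at place 36 and 40 for each other. Many miRNAs from other hairpins thus followed an arm more closely than its partner did under that scaling. With total reads the rho between the arms was 0.521, and the order was not computed.

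The marker miRNAs of cell types that a pituitary sample can hold did not pass the limma test between the diets. None of the 8 white blood cell, 3 red blood cell, 2 endothelial, 6 stromal, 10 pituitary endocrine or 2 tested neural miRNAs (of 4 listed) had an FDR below 0.1 in limma, against 3.58% of all tested. Their median log2 fold changes were 0.08, 0.46, -0.03, 0.16, -0.07 and 0.19, beside 0.02 over all tested miRNAs. The red blood cell miRNAs went both ways, with log2 fold changes of 0.55 for miR-451 and 0.46 for miR-144 but -0.27 for miR-486, the most abundant of them, and the median of their summed level was 17406 CPM among HI calves against 20588 CPM among MOD calves. The study's own edgeR analysis called miR-451 and miR-144 higher in HI calves at FDR < 0.1 and a fold change above 1.5. In limma here their FDR was 0.190 and 0.115. The summed level of the white blood cell list ran from 1443 to 3160 CPM in HI and from 1246 to 4463 CPM in MOD calves, and its rho with bta-miR-21-5p was 0.0020. Its members were unlike each other in this, with a rho of 0.447 for miR-142-5p and 0.386 for miR-146a but -0.05 for miR-146b, the most abundant of the list. Between these lay miR-223 at 0.242, miR-150 at 0.140 and miR-342 at 0.02. The summed endocrine list, which is mostly miR-375, had a rho of -0.494 with the 5p arm. Its other members went both ways, from -0.308 for miR-429 to 0.222 for miR-200c, beside -0.568 for miR-375. With bta-miR-21-3p the sums of the neural and stromal lists had a rho of -0.486 and -0.351. The neural sum is mostly miR-128, whose own rho was -0.488, while miR-124a was at -0.34, miR-219-5p at -0.06 and miR-9-5p at -0.03, and the stromal sum is mostly miR-143, at -0.329. No marker of any list was at 0 in all libraries, and the part of cell makeup in the levels of miR-21 was not tested.

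The miRNAs that, like miR-21, are linked to TGF-beta signalling and fibrosis were compared as a list. Of its 10 members 1, miR-29a, passed FDR < 0.1 in limma, beside 3.58% of all tested miRNAs, and it was lower in HI calves. miR-29a, which represses collagens, was at 2638 ± 143 CPM (SD, n = 15) in HI and 2914 ± 208 CPM (SD, n = 15) in MOD calves, a log2 fold change of -0.14 with an FDR of 0.0365. The median log2 fold change of the list was 0.02, as over all tested miRNAs, and the rho of its summed level with bta-miR-21-5p across calves was 0.121. Messenger RNA and protein targets of miR-21 were not analysed here.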

How the data were processed

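Small RNA libraries of 15 HI and 15 MOD calves were grouped by their labels. Per the study's methods, adapters were trimmed with Cutadapt, reads shorter than 15 or longer than 28 bases and reads of other short RNAs were removed, and miRDeep2 counted reads on known bovine miRNAs with the ARS-UCD1.2 genome. The submitters' processing notes name FastQC 0.11.8, cutadapt 2.6, R 3.4 and edgeR 3.5. The deposited values were a normalized signal, not raw counts: the authors had expressed the reads as CPM and scaled them by TMM. How reads that match several miRNAs or carry end variants were assigned can change the level of either arm.

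The smallest common step among low values gave the worth of 1 read and so the reads per miRNA. At least 93.7% of low values per library came within 0.1 reads of a whole number, as did all values of both arms. No 2 libraries were copies (lowest chi-square over its degrees of freedom 75.1 in 435 pairs). edgeR's filterByExpr, by diet, left 419 miRNAs with 99.99% of the reads. They were compared with limma 3.58.1 (lmFit, eBayes with trend) in R 4.3.3 on log2(CPM + 1), with Benjamini-Hochberg FDR < 0.1 and a fold change above 1.5. Arm ratios were compared likewise on log2 of reads plus 0.5. edgeR 4.0.16 and DESeq2 1.42.0 were run on the recovered reads as alternatives, beside other scalings, filters, pseudocounts, covariates and fits without 1 calf. The fits were also run on simulated counts, with an outcome not reported here. Each miRNA was drawn on its own, so variation shared by the 2 arms of a hairpin was not simulated. Single values were compared with two-sided permutation tests, of 100000 resamples or, within the sets of 21 and 9 libraries, exact.

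The members and lists were chosen with earlier results of these data known. Named miRNAs were the members, the 5 most like each by Spearman's rho, the next above and below in mean CPM, the 3 highest and 3 lowest arm ratios, and list members; 1 further list is not reported here. miRNAs with the same seed as a member were also to be named, but sequences were not used here. The most opposed miRNAs and miR-6119 were chosen after their values were seen. RefSeq's ARS-UCD2.0 table, another build, gave names and neighbours only.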

Additional observations from a re-analysis of the deposited data

How the results depend on the processing

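The difference of bta-miR-21-5p between the diets kept its direction and stayed short of the threshold under 15 of 15 alternatives (log2 fold change 0.02 to 0.10, FDR 0.362 to 0.965) and in all 30 fits without 1 calf (0.02 to 0.05). For bta-miR-21-3p 14 of 15 alternatives did so. The sign turned with RLE size factors (-0.0029, FDR 0.991) and in 8 of 30 fits without 1 calf, which ran from -0.0247 to 0.0272, so no direction is given for this arm. The arm ratio kept its sign under 5 of 5 alternatives (0.0047 to 0.02) and ran from -0.0025 to 0.0447 without 1 calf, turning only without MOD calf 11. The number of miRNAs past FDR < 0.1 was 15, or 10 to 24 under the alternatives (24 with DESeq2's Wald test) and 14 to 21 without 1 calf. Past both thresholds there were 2, or 4 with edgeR's quasi-likelihood test, edgeR's exact test and DESeq2, 0 in limma with miR-486 as a covariate (41 at an unadjusted p under 0.05), and 2 to 4 without 1 calf (4 without HI calf 13). The arm ratios past FDR < 0.1 were 0, and 0 to 1 without 1 calf, since in 15 of these fits the miR-2419 pair, not among the 31, entered the filter and passed. Calls split into 8 higher and 7 lower with TMM, 16 and 2 with total reads, 8 and 2 with upper quartile scaling, and 19 and 1 without the 5 most abundant miRNAs. Depth did not limit either arm, but both rest on the library scaling. No paired analysis was possible because no label numbers the calves of both diets alike. The study had blocked its calves by age, bodyweight, sire and farm before diets were assigned. The labels do not give these blocks, so the fits leave them out.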
